A study of Mus musculus with 2 samples.

Results

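The genes in this account encode subunits of the Polycomb repressive complexes and of the Asxl-Bap1 deubiquitinase, and they were described by the Myb ChIP-Seq peaks that lay in or around them. There were 10 genes: Ezh2, Ezh1, Eed, Suz12, Jarid2, Bmi1, Asxl1, Asxl2, Asxl3 and Bap1. A peak was counted for a gene when its summit lay in the gene body or within 20 kb of it in the GENCODE vM21 annotation of mm10 (GRCm38). By this rule 34 of the 25793 peaks of the deposited list were at these genes, and 9 of the 10 genes had at least 1.

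Myb ChIP-Seq was done on bone marrow of WT mice after depletion of mature lineages, which leaves a Lin- fraction rich in the stem and progenitor cells of the blood (HSPCs). The labels give a purity above 80%, so that some other bone marrow cells could be present. There was 1 library precipitated with an antibody against Myb and 1 precipitated with rabbit IgG, which served as the background when the authors called peaks. The study used the Myb peaks to name target genes of Myb in normal progenitors. With 1 library of each kind, no value below carries an estimate of the variation between mice, and no test between groups was possible.

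Polycomb repressive complex PRC2 methylates histone H3 at K27, a mark of silenced genes. Its catalytic subunit is Ezh2 or Ezh1, its core subunits are Eed and Suz12, and Jarid2 is an accessory subunit. PRC1, of which Bmi1 is a subunit, ubiquitinates histone H2A, and the deubiquitinase formed by Bap1 with an Asxl protein removes that ubiquitin. In the blood system Bmi1 is needed for self-renewal of hematopoietic stem cells, and loss-of-function mutations of EZH2 and ASXL1 are recurrent in myelodysplastic syndromes. Myb is a transcription factor needed for the maintenance of hematopoietic progenitors, and it binds DNA through a short consensus whose forms are spelled out beside the sequences.

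The sequences at 8 summits are shown to make the motif counts concrete, read from the GRCm38 reference on its + strand and 101 bases long, with the summit at the central base. Capitals mark the Myb motif, which was searched on both strands and has the form CAACKG or the form TAACKG, where K is G or T. On the opposite strand CAACTG reads CAGTTG, and TAACTG reads CAGTTA. Peaks of a gene were numbered along its direction of transcription. The 3 Ezh2 peaks are given because each held the motif, the 3 Asxl1 peaks because they hold the motif outside the start site, and the Jarid2 peak because the motif covers its summit. The Suz12 peak, the strongest of that gene, shows a start-site summit with no Myb motif.
Ezh2 peak 1, chr6:47595488-47595588: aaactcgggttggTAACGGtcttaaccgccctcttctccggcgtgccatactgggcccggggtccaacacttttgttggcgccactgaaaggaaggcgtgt
Ezh2 peak 2, chr6:47593846-47593946: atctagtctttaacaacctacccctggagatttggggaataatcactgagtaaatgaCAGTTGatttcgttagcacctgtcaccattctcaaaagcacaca
Ezh2 peak 3, chr6:47565770-47565870: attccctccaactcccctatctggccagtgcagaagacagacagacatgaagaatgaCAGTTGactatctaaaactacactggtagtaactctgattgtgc
Asxl1 peak 1, chr2:153336233-153336333: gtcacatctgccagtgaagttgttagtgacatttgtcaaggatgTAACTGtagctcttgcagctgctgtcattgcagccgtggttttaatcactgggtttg
Asxl1 peak 4, chr2:153348522-153348622: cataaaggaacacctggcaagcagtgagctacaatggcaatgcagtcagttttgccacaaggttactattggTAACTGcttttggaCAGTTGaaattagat
Asxl1 peak 6, chr2:153351080-153351180: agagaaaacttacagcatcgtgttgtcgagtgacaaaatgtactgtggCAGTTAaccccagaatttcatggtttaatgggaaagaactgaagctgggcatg
Jarid2 peak 3, chr13:44819665-44819765: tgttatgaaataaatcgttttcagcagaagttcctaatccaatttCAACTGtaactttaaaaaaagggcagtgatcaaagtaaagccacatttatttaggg
Suz12 peak 1, chr11:79992706-79992806: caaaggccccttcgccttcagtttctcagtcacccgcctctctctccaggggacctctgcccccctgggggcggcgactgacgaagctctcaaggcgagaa

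A Myb peak lay near the start site of all of these genes but Asxl3. In the window of 20 kb, 9 of the 10 genes had a peak, beside 58.6% of the 21938 protein-coding genes. In the gene body and 3 kb on each side, the number was again 9, beside 46.4% of protein-coding genes. Within 3 kb of an annotated start of the gene itself it was also 9, beside 39.9%.

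The 34 peaks were unevenly divided. Bmi1 had 10 and Asxl1 had 7, Ezh2, Ezh1, Suz12 and Jarid2 had 3 each, Asxl2 and Eed had 2 each, and Bap1 had 1. The farthest peak counted was 11639 bp past the end of Bmi1 and the nearest peak not counted was 27410 bp from Ezh1, so any window between these distances gives the same counts. Longer genes have more room for peaks, and the windows of the 10 genes had a median of 89.6 kb against 57.4 kb for protein-coding genes. Per 100 kb of window the genes had a median of 2.93 peaks (range, 0 to 20.2), and the median for protein-coding genes was 1.44 (quartiles, 0 and 4.16). Of the 10 values, 8 lay within those quartiles, and Bmi1 and Asxl1 lay above the upper one.

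**Figure D1:**
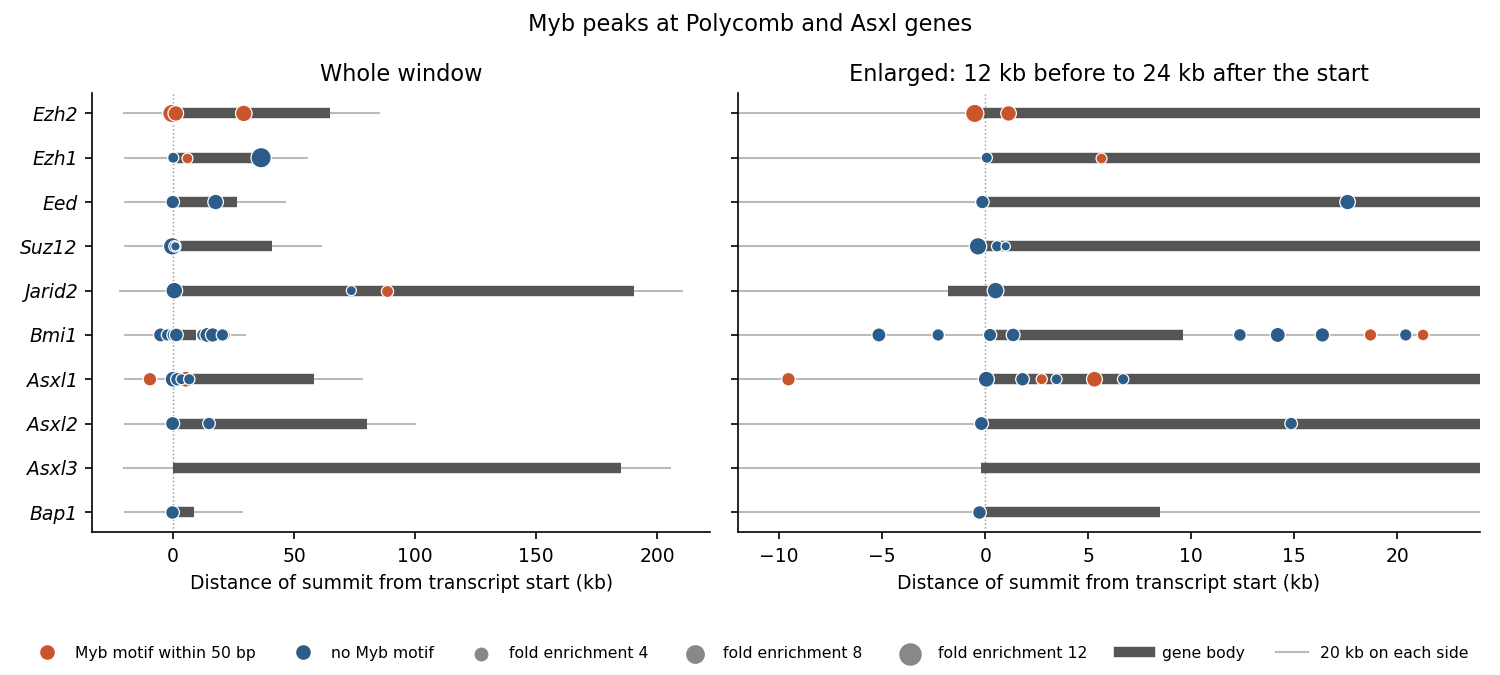
Position of each Myb summit relative to the start of the principal transcript of its gene, in kb, for the 10 genes, with the whole window on the left and an enlargement on the right. Dot area grows with fold enrichment over IgG, orange dots have a Myb motif within 50 bp, thick bars are gene bodies and thin lines the 20 kb on each side. All genes but Asxl3 have a dot within 1 kb of the start, and Bmi1 has 6 dots past its end.

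Peak strength was given by the authors as fold enrichment, the Myb pileup at the summit over the local IgG background. The median over the 34 peaks was 5.29, the quartiles were 4.06 and 6.88, and the values ran from 2.51 to 11.8. For the whole list the median was 4.51, with quartiles of 3.73 and 5.95. Of the 34 peaks, 11 were above the upper quartile of the list, or 32.4% (exact 95% binomial interval, 17.4% to 50.5%). That interval includes the share of 24.9% above it in the whole list, so a difference in strength was not detectable at this number of peaks. The summits were covered by a median of 18 Myb reads (range, 10 to 50), as recovered from the deposited values, and the median for the list was also 18. Fewer than 20 reads covered 18 of the 34 summits, and single fold enrichments are therefore given with an exact Poisson 95% interval on the Myb reads. Intervals here cover counting error alone, and neighboring peaks of a gene are not independent of each other. Those of fold enrichment leave out the error of the IgG background, which was held fixed.

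**Figure D2:**
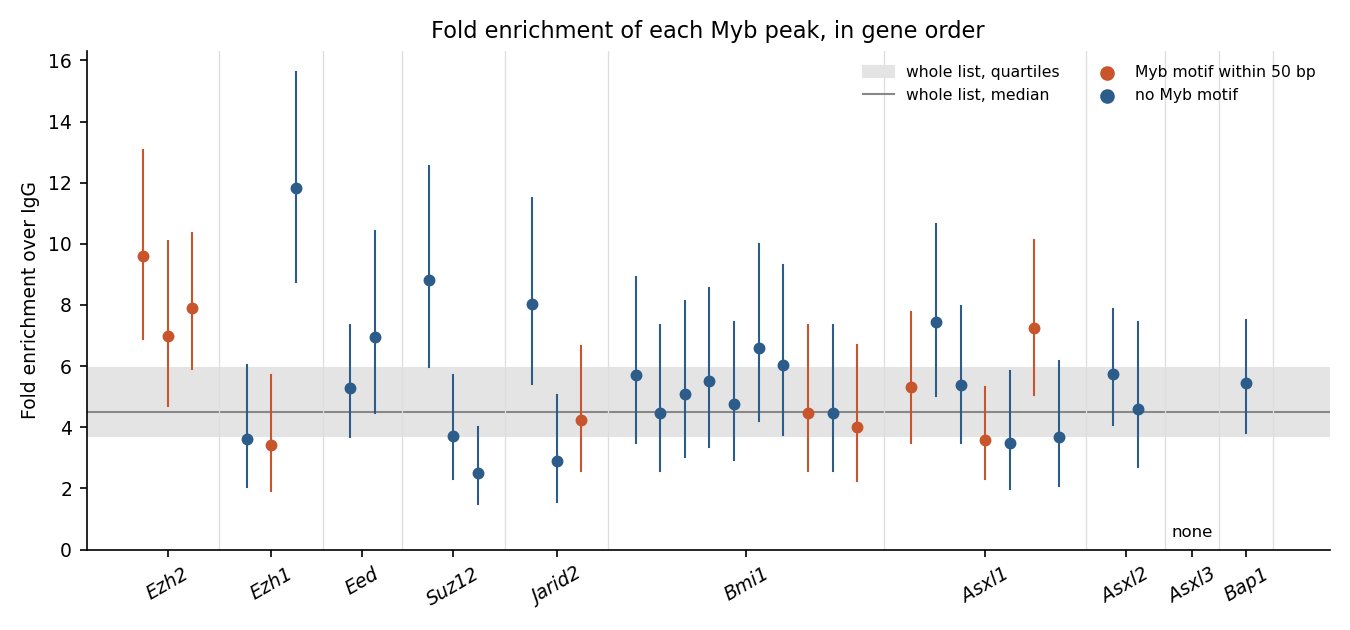
Fold enrichment over IgG of each of the 34 Myb peaks (vertical axis), in order of position along each gene, with vertical lines for the exact Poisson 95% interval on the Myb reads. The gray band and line are the quartiles (3.73 and 5.95) and the median (4.51) of the whole list, and orange points have a Myb motif within 50 bp of the summit. The highest point is the peak past the end of Ezh1 at 11.8, and all 3 Ezh2 points lie above the band.

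Ezh2, the main methyltransferase of PRC2 in dividing cells, had Myb peaks above the upper quartile of the list both at its start and deep in the gene. The gene (ENSMUSG00000029687.16) lies on the - strand at chr6:47530139-47595341, and its window held 3 peaks. Peak 1, 508 bp before the start of the principal transcript and 197 bp from another annotated start of Ezh2, had a fold enrichment of 9.62 (6.90 to 13.1) from 38 reads. Peak 2, in the first intron 1134 bp after the start, had 7.002 (4.69 to 10.1) from 26 reads. Peak 3, in the third intron 29210 bp after the start, had 7.89 (5.91 to 10.3) from 50 reads, the most of the 34 summits. The intervals of the 3 peaks overlap each other, so their order in strength was not resolved. The interval of peak 1 also overlapped those of the strongest start peak of Suz12 and the start peak of Jarid2 given below. Each of the 3 Ezh2 peaks had a fold enrichment above the upper quartile of the list, at percentiles 94.9, 85.2 and 89.4.

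All 3 Ezh2 summits had the Myb motif, and none of the other 9 genes had it at every peak. The motif at peak 1 was TAACGG with its nearest base 32 bp from the summit. The motif at peaks 2 and 3 was CAACTG on the - strand of the genome, which is the coding strand of Ezh2, and its nearest base was 7 bp from the summit in both. These positions can be read in the sequences above. Peak 1 also matched the ETS and SP/KLF consensus within 50 bp, and peak 3 matched GATA.

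Ezh1, the other methyltransferase of PRC2 and one that is also found in nondividing cells, had 1 peak at its start, 1 farther into its first intron and a higher one past its end. It lies on the - strand at chr11:101191115-101226463 (ENSMUSG00000006920.14). The peak in its first intron 76 bp from the start had a fold enrichment of 3.61 (2.04 to 6.05) from 12 reads, and the peak 5612 bp into the same intron had 3.41 (1.92 to 5.71), also from 12. Both values were below the lower quartile of the list. The third peak had 11.8 (8.77 to 15.6) from 47 reads, percentile 97.7 of the list, and its interval did not overlap those of the other two.

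That peak, with the highest fold enrichment of the 34, does not lie within Ezh1. Its summit was 1032 bp past the end of Ezh1, in a UTR of Cntnap1, the next gene. The nearest start of a protein-coding transcript, 14042 bp away, was that of Cntnap1. With all annotated transcripts counted, the nearest start was one of Ezh1, 4339 bp away. The peak spanned chr11:101189895-101190431. It had no Myb motif within 50 bp of the summit, whereas ETS, GATA and E-box sequences were present. The second peak of Ezh1 held CAACTG 39 bp from the summit.

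Eed, the PRC2 subunit that binds methylated H3K27, and Suz12, the subunit that holds the core complex together, were both bound at the start. Eed (ENSMUSG00000030619.9; chr7:89954654-89980983, - strand) had a peak 137 bp before its start with a fold enrichment of 5.28 (3.70 to 7.33) from 33 reads, and it was 2065 bp wide. Its other peak, in the eighth intron of the principal transcript and 570 bp from another annotated start of Eed, had 6.97 (4.47 to 10.4) from 21 reads. The Eed peaks had overlapping intervals and no Myb motif. Suz12 (ENSMUSG00000017548.15; chr11:79993106-80034123, + strand) had 3 peaks within 993 bp of its start. The peak 350 bp before the start had 8.81 (5.98 to 12.6) from 28 reads, percentile 93.0. The peaks at 581 bp and 993 bp after it had 3.71 (2.30 to 5.72) and 2.51 (1.49 to 4.01). The Suz12 peak with the highest fold enrichment thus lay before the start, with an interval above those of both peaks in the first intron. These intervals hold the local IgG background fixed, at 1.56, 3 and 4 for the 3 peaks in order. Their read numbers, 28, 18 and 15, had intervals that overlapped (18.6 to 40.5, 10.7 to 28.4 and 8.40 to 24.7). The last of the 3 peaks had a q-value of 0.161, above the threshold of 0.05 that the study's methods state.

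Jarid2, which recruits PRC2 to chromatin, is the longest of the 10 genes at 192 kb and had 1 peak at its start and 2 far into its first intron. It lies on the + strand at chr13:44729474-44921643 (ENSMUSG00000038518.15). The peak in its first exon, 503 bp from the start of the principal transcript, was 2494 bp wide and had a fold enrichment of 8.02 (5.41 to 11.5) from 27 reads, percentile 90.2. The peaks 73654 bp and 88444 bp into the first intron had 2.90 (1.56 to 5.05) from 10 reads and 4.23 (2.56 to 6.67) from 16 reads. The interval of the start peak overlapped that of the second intron peak alone. The weaker intron peak had a q-value of 0.187, and the other held CAACTG over its summit, as the sequence shows. A count of 3 peaks equals the upper quartile of the 1055 protein-coding genes with windows at least as long, whose median was 1.

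Bmi1, the PRC1 subunit needed for stem cell self-renewal, had the densest group of Myb peaks among the 10 genes. It is a short gene of 9.61 kb on the + strand at chr2:18677018-18686629 (ENSMUSG00000026739.13), and its window of 49.6 kb held 10 peaks. Peaks covered 13.9% of that window. A density of 20.2 per 100 kb was at percentile 99.2 of the protein-coding genes. At least 10 peaks were found for 2.09% of all protein-coding genes, and for 98 of the 7563 genes with a window no longer than that of Bmi1, or 1.30%.

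The Bmi1 peaks had moderate values, and 2 of the 10 lay above the upper quartile of the list. Fold enrichment ranged from 3.997 to 6.60, and read numbers from 12 to 20, with intervals that all overlapped. Peak 3, in the first exon 235 bp from the start, had 5.09 (3.03 to 8.13) from 15 reads. Peak 6, the highest, lay 4586 bp past the end of the gene and had 6.60 (4.19 to 9.98) from 20 reads. Of the 10 peaks, 2 lay before the gene, 2 in it and 6 past its end, and the last 6 spanned 8890 bp.

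Several of these peaks were nearer to the start of a neighbor than to that of Bmi1. The nearest protein-coding start was that of Bmi1 for 4 of the 10 peaks, that of Commd3 for the peak 5160 bp before the start, and that of Spag6 for the last 5. By protein-coding transcripts, the peak nearest to Spag6 was 755 bp from its start. With all annotated transcripts counted, peak 7 was 650 bp and peak 5 was 4654 bp from a start of Spag6. Peak 2, in an intron of Commd3, was then 86 bp from a start of Commd3. By this count Bmi1 was nearest for peaks 3 and 4 alone. Peaks 8 and 10, both in the Spag6 group, held the Myb motif, as CAACTG and TAACGG, 23 bp and 18 bp from the summit. The assay gives no information on which of these genes a peak acts on.

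Asxl1, a subunit of the deubiquitinase that is often mutated in myelodysplastic syndromes, had a run of peaks over the first part of the gene. It lies on the + strand at chr2:153345829-153404007 (ENSMUSG00000042548.14), and all 7 peaks were nearer to its start than to that of any other protein-coding gene. At least 7 peaks were found for 5.92% of protein-coding genes, and its density of 7.13 per 100 kb was at percentile 88.0. From the start on, 6 summits spanned 6637 bp, with gaps of 719 to 1839 bp. The rest of the gene body held no peak.

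The Asxl1 peaks ranged in fold enrichment from 3.49 to 7.43, and their intervals all overlapped. Peak 2, in the first exon 56 bp from the start, had a fold enrichment of 7.43 (5.01 to 10.7) from 27 reads. Peak 6, in the first intron 5301 bp from the start, had 7.25 (5.05 to 10.1) from 32 reads. These were the highest values of the gene. Of the peaks between them, peak 3 had 5.37 (3.48 to 7.97), peak 4 had 3.59 (2.32 to 5.33) and peak 5 had 3.49 (1.97 to 5.85). Peaks 3 and 4 lay 34 bp and 769 bp from another annotated start of Asxl1. Peak 7, in the second intron, had 3.69 (2.08 to 6.17). Peak 1, 9546 bp before the start, had 5.30 (3.50 to 7.76) from 24 reads.

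Of the 7 Asxl1 peaks, 3 held the Myb motif, and the first-exon peak was not among them. Peak 1 had TAACTG with its nearest base 1 bp from the summit, and peak 6 had TAACTG over the summit on the opposite strand. Peak 4 held both TAACTG and CAACTG, the nearer at 22 bp. The start of Asxl1 is 19 bp from that of 2500004C02Rik on the other strand, so a peak there belongs to both starts.

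Asxl2 and Bap1, the other bound members of the deubiquitinase, each had a wide peak at the start. Asxl2 (ENSMUSG00000037486.18; chr12:3426857-3506852, + strand) had a peak 183 bp before its start that was 2688 bp wide, the widest of the 34, with a fold enrichment of 5.74 (4.08 to 7.87) from 36 reads. A peak 14849 bp into its first intron, 800 bp from another annotated start of Asxl2, had 4.60 (2.69 to 7.45) from 14 reads. The summit of the start peak of Asxl2 lay in 1110002L01Rik, a gene on the other strand. It was 40 bp from an annotated start of that gene. Bap1, the catalytic subunit, is a gene of 8.495 kb on the + strand at chr14:31251450-31259944 (ENSMUSG00000021901.10). Its single peak, 279 bp before the start and 1875 bp wide, had 5.43 (3.82 to 7.51) from 34 reads. The start of Phf7 lies 133 bp from that of Bap1 on the other strand, and the summit was nearer to Phf7, at 144 bp. None of these 3 peaks held the Myb motif.

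Asxl3, the third Asxl gene, had no Myb peak in a window of 225 kb. The gene (ENSMUSG00000045215.16) lies on the + strand at chr18:22344883-22530227, and the nearest peak was 508968 bp from it. Absence of a peak is common in windows of this length, with 452 of 1101 protein-coding genes with a window at least as long, or 41.1%, having none. A peak absent from the list may also lie below the threshold of the caller, which the list does not show.

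Among the 9 bound genes the peaks fell into those at the start of the principal transcript and those away from it, with different base composition. A peak within 1 kb of the start of the principal transcript was present at all 9 genes, 11 peaks in total, and for 6 of the 9 genes the peak with the highest fold enrichment was among these. The 11 start peaks had a median GC content of 62.7% over 201 bp and a median ratio of observed to expected CpG of 0.897. The other 23 peaks had medians of 40.8% and 0.311. Some of these lay within 1 kb of another annotated start of their gene, such as peaks 3 and 4 of Asxl1 and peak 2 of Eed. Others lay within 1 kb of a start of a neighbor, such as peak 10 of Bmi1. Across the list, peaks within 1 kb of any protein-coding start had medians of 57.2% and 0.711, and the others 45.8% and 0.234. That rule takes the starts of any gene and is wider than the rule for the 11 peaks. A contrast in the same direction was thus present across the list. Start peaks were also wider, with a median of 1115 bp against 537 bp. Their median fold enrichment was 5.43 against 4.77, with ranges that overlapped from 2.90 to 9.62.

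Peaks wider than 2 kb numbered 4 of 34, or 11.8% (3.30% to 27.5%), against 3.36% of the list, a value inside the interval. They were the start peaks of Asxl2, Eed and Jarid2 and the second peak of Ezh2, and all had summits within 2 kb of the gene's start. Promoter peaks, defined as within 3 kb of any annotated start, numbered 25 of 34, or 73.5% (55.6% to 87.1%), against 57.6% of the list. Introns outside that distance held 6 peaks, UTRs 1, intergenic sequence 2 and exons 0. By the principal transcript of each gene, 13 summits were in the first intron, 3 in later introns and 3 in exons.

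The Myb motif was present within 50 bp of 10 of the 34 summits, or 29.4% (15.1% to 47.5%). The share over all summits was 16.7%, which lies inside that interval. Windows of the same size centered 500 bp to each side held the motif in 11.8% of cases at these genes and in 10.5% across the list. The position relative to the list depended on the form of the motif. With the looser form AACNG, where N is any base, the shares were 47.1% at these genes and 54.3% in the list. The 10 summits were 3 each at Ezh2 and Asxl1, 2 at Bmi1 and 1 each at Ezh1 and Jarid2. Eed, Suz12, Asxl2 and Bap1 had none.

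By position, the motif was found at 1 of the 11 start peaks, peak 1 of Ezh2, or 9.09% (0.230% to 41.3%), and at 9 of the other 23, or 39.1% (19.7% to 61.5%). These intervals overlap, and the difference was not tested. Across the list it was found at 12.9% of the summits within 1 kb of a protein-coding start and at 18.6% of the others, a difference in the same direction. The list was split by the protein-coding starts of any gene, and the 34 peaks by the principal start of their own gene. By the rule of the list, peaks 1, 4 and 10 of Bmi1 would be start peaks too, and peak 10 held the motif. Peaks with the motif at these genes had a median fold enrichment of 4.88 (n = 10 peaks) and those without it 5.32 (n = 24), with ranges of 3.41 to 9.62 and 2.51 to 11.8. Peaks with and without the motif therefore overlapped in strength. In 5 of the 10 summits with a motif it was within 10 bp of the summit (exact interval of this share, 18.7% to 81.3%), against 31.4% for the list. Of the 11 motif matches, 6 were CAACTG, 3 TAACTG, 2 TAACGG and none CAACGG, which made up 13.6% of the 4792 matches in the list.

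The same windows were searched for the consensus of another 6 families of factors active in blood cells. The ETS core GGAAG was present at 5 of 34 summits, or 14.7% (4.95% to 31.1%), against 34.9% of the list, a share above the interval. The 5 were the start peaks of Asxl2, Ezh2 and Jarid2, the peak past Ezh1 and an intron peak of Jarid2, and none of the 10 Bmi1 summits or 7 Asxl1 summits had it. It was the only 1 of the 7 motif families counted for which the list lay outside the interval, and those counts rest on few and clustered peaks. The GATA consensus (GATA after A or T and before A or G) was at 7 summits, or 20.6%, against 20.1% of the list. RUNX (TGTGGT) was at 3, or 8.82%, against 9.79%. CEBP (TTGCNNAA) and SP/KLF (GGGCGG) were each at 4, or 11.8%, against 6.16% and 7.15%. The E-box CAGNTG was at 10, or 29.4%, against 25.9%. The Myb motif CAACTG is itself an E-box read on the other strand, and without such matches the E-box shares were 20.6% and 20.1%. A match describes the letters in the window and not a bound site.

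**Figure D3:**
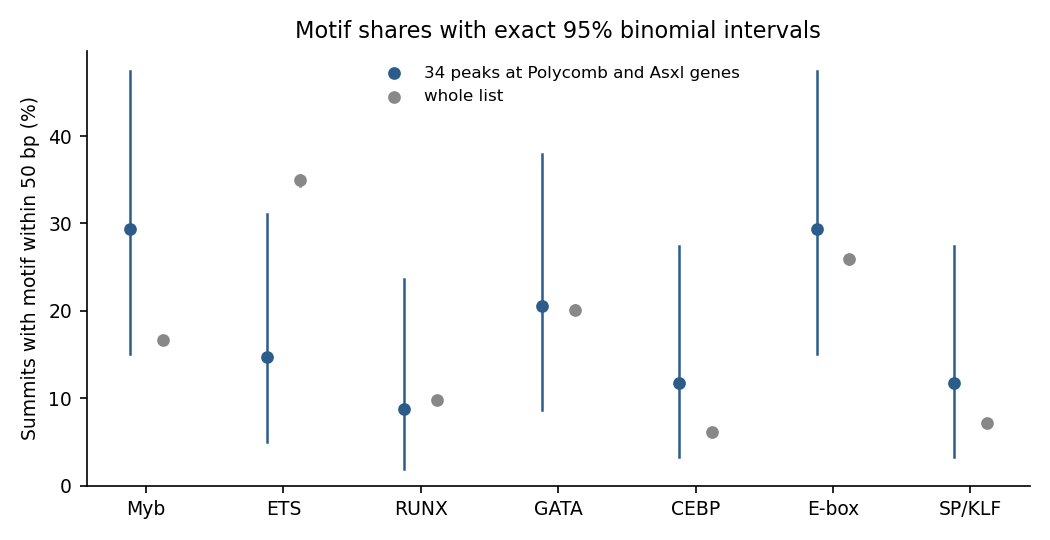
Share of summits with each consensus within 50 bp on either strand, in percent, for the 34 peaks at the 10 genes (blue) and for all 25793 peaks (gray), with exact 95% binomial intervals as vertical lines. The gray point lies inside the blue interval for each family except ETS, where it is 34.9% against an upper bound of 31.1%.

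Other subunits and partners of these complexes, with the H3K27 demethylases, which are not subunits, were examined as a separate chosen list of 40 genes. A peak within 20 kb was found at 36 of them, or 90.0%, beside 58.6% of protein-coding genes, and 31 had one within 3 kb of an own start, beside 39.9%. By complex, the numbers were 7 of 8 for other PRC2 subunits and partners, 21 of 23 for other PRC1 subunits, 6 of 7 for partners of the deubiquitinase and both H3K27 demethylases. The 4 genes without a peak were Foxk1, Pcgf1, Rbbp7 and Scmh1. The windows of the 40 genes had a median of 83.1 kb, and the median density was 2.39 peaks per 100 kb. Some of the 40 windows overlap, and each peak was counted 1 time in the following. The 107 peaks of the 40 genes had a median fold enrichment of 4.51, equal to that of the list, and 17 had the Myb motif, or 15.9% (9.54% to 24.2%), against 16.7% of the list.

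Of the strongest peaks among the other genes, 4 are given here, and 3 of these were nearest to the start of another gene. Mbd6, a partner of the deubiquitinase, had a peak of fold enrichment 15.0 (11.7 to 19.1) from 64 reads, 557 bp from the start of Ddit3. Mtf2, a PRC2 subunit that directs it to CpG islands, had a peak of 10.7 (7.86 to 14.2) from 45 reads, 378 bp from its own start. The peak at Bcorl1, a PRC1 subunit, was 17299 bp outside the gene and nearest to Elf4, with 10.6 (7.72 to 14.2) from 42 reads. That at Pcgf6, another PRC1 subunit, was 214 bp from the start of Taf5, with 9.62 (6.90 to 13.1) from 38 reads.

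**Figure D4:**
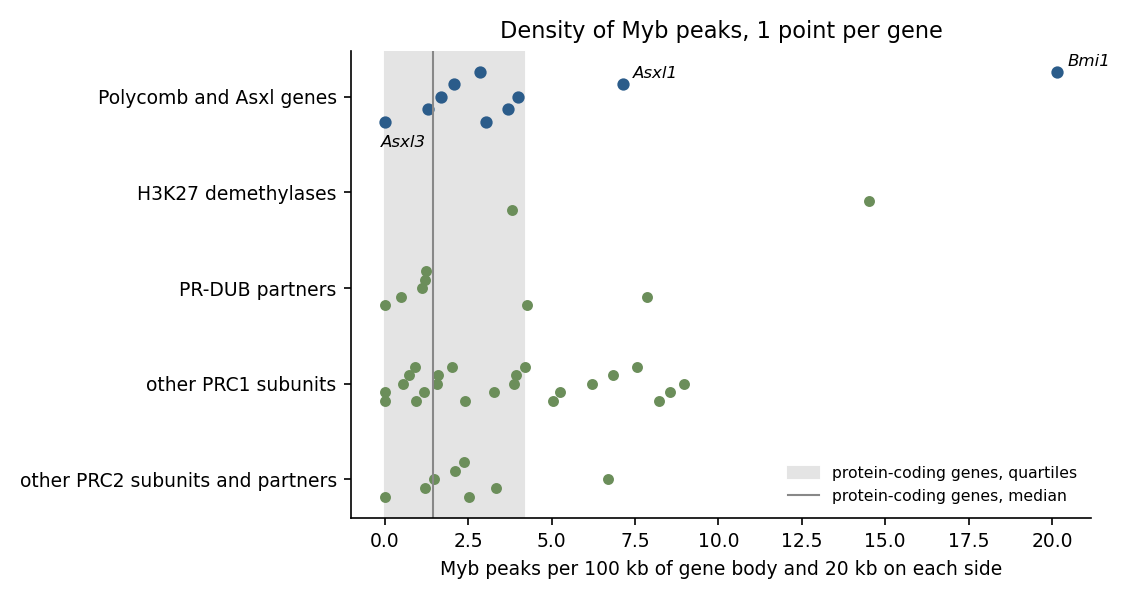
Myb peaks per 100 kb of gene body and 20 kb on each side (horizontal axis), 1 point per gene. The 10 genes are blue, and the 40 other genes are green, by complex and with the H3K27 demethylases apart. The gray band runs between the quartiles of protein-coding genes (0 and 4.16) with their median of 1.44 as a line, and Bmi1 at 20.2 and Asxl1 at 7.13 lie to the right of it.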

How the data were processed

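ChIP-Seq reads of 1 Myb library and 1 IgG library from WT Lin- bone marrow cells were processed by the authors, and the only file analysed here was the peak list of the Myb library. Per the submitters' processing notes the tools were cutadapt 1.15, BWA 0.7.13, Picard and MACS2 2.1.1.20160309, with mm10 as the genome. Per the study's methods, a peak had to be called in pseudo-replicates, subsets of the reads of this library, with IgG as the background and a q-value threshold of 0.05. The list nevertheless holds rows above that threshold, 2 of them among the 34 peaks described, and all rows were kept. The fold enrichment of each peak was deposited by the authors as a ratio of the Myb pileup to the IgG background, each with 1 added. P-values and q-values were deposited as −log10 values. Summits came from the deposited coordinates, which are given here 1-based. The score column was not used. The IgG library entered only through the authors' peak calls.

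Summits were assigned to GENCODE vM21, with chrM left out, and sequence was read from GRCm38. Library depth is not given by the list. The reads behind a peak were therefore recovered from its fold enrichment and p-value under the Poisson model of MACS2, with 1 scale of 0.769 for the Myb pileup, which gave whole reads in 100% of rows (tolerance, 0.001 reads). The recovery and the counting steps were tested on simulated data. Shares have exact (Clopper-Pearson) and read numbers exact Poisson 95% intervals. With 1 library per group, no test was made and no p-value computed. The text names the 10 genes with all their peaks and any protein-coding gene whose start is nearer to such a peak. Of the 40 other genes it names the 5 with the highest fold enrichment and those with no peak. Of these 5, 1 is not reported here. The 10 genes and the lists were chosen with earlier results of these data known. Alternatives changed the q-value threshold, the window, the overlap rule, the rule on the nearest start, the motif and the promoter definition. Those at a q-value of at most 0.05 and all those for the 40 genes were added after the data had been seen. Python 3.11.15, pandas 2.3.3, scipy 1.17.1 and pysam 0.24.0 were used.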

Additional observations from a re-analysis of the deposited data

How the results depend on the processing

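Of 41 alternatives, 38 gave a value within the limits set for a change. The limits were a factor of 1.5 for counts and densities and the 95% interval of the main value for the rest. They are wide, so a value within them can still change its position relative to the list. A minimum of 5 for the −log10 q-value reduced the 34 peaks to 18 and raised their median fold enrichment to 6.78, as removing weak peaks must, and the median of the list rose to 6.23. A window of 50 kb gave 52 peaks, by its larger size. The number of genes with a peak was 9 under all 6 alternatives for it. A further rule kept only peaks whose nearest protein-coding start was that of a member. It left 26 peaks and was not applied to the number of genes. Bap1 has no peak by that rule, since its single peak was nearest to Phf7. With a minimum of 5 for the −log10 q-value, the number for the 40 other genes fell from 36 to 24, at the edge of the limit. The share of all protein-coding genes fell to 42.3%. The motif share ran from 17.6% within 25 bp (list, 8.68%) to 47.1% for AACNG (list, 54.3%), and with AACNG its position relative to the list reversed, from above to below. Depth limits single peaks, most of which rest on few reads. No paired analysis was possible because there was 1 library of each kind, and for the same reason no library could be left out.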
